A study of Mus musculus with 3 samples.

Results

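The genes described here encode the proteins of the cytosolic ribosome in mouse melanoma cells of the B16 line that hold a stably inserted empty vector (Mock). Members were all genes whose symbol has the form of a small-subunit (Rps), large-subunit (Rpl), stalk (Rplp0, Rplp1, Rplp2) or Rpsa gene, without the Rps6 kinases. They made up 83 of the 17285 rows of the count table, 77 of them core subunit genes (31 of the 40S and 46 of the 60S subunit) and 6 with the names of paralogs. RNA was sequenced from 3 samples, Mock replicates 1, 2 and 3, which form 1 group, so genes were compared with each other within a library and between the libraries, and no conditions were compared. All samples share the cell line and the empty vector, and the labels name the line as a single stable one, while their extraction text also speaks of organs. The series title concerns the sialyltransferase ST8Sia5, and no sample expressing it from a vector was analysed here. Nothing in the labels says that separate cultures were used. A p-value for a level or a ratio here therefore reflects the spread among 3 samples that may be technical replicates. The test of variation between libraries is set against counting error alone.

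A cytosolic ribosome is built from a small subunit, which decodes the mRNA, and a large subunit, which joins the amino acids. Most of its proteins are present in a single copy per ribosome, while the stalk proteins Rplp1 and Rplp2 are present in more than one. Many mRNAs of these genes begin with a C followed by an unbroken run of C and T (U in the RNA), the 5′ terminal oligopyrimidine tract through which mTOR and Larp1 control their translation. Mammalian genomes hold many processed pseudogenes of these genes, which are copies of their mRNAs inserted elsewhere, so short reads of a ribosomal protein mRNA can match several places. Steady-state RNA measures neither translation nor protein.

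Totals were 9328087, 9456501 and 9438894 counts in replicates 1, 2 and 3, where 13437, 13192 and 13334 genes had a count. Levels are given in CPM, reads scaled to the library's total in the table, after TMM scaling. The pigment cell genes were present, with Tyrp1 at 12337 ± 399, Dct at 2713 ± 47.7 and Pmel at 1258 ± 66.6 CPM (SD, n = 3). Mitf was at 135 ± 6.80 CPM, and Tyr was far lower than these, at 6.52 ± 0.84 CPM. In the test given below, all 7 listed pigment cell genes exceeded 1 CPM, against 74.3% of the 14408 genes tested. Rows were present for 5 of 7 listed leukocyte, 5 of 6 fibroblast, 3 of 5 epithelial and 4 of 5 germ cell markers. All listed endothelial and muscle markers had a row. Summed over the markers with a row, those of leukocytes lay between 0 and 0.212 CPM in the libraries and those of endothelium between 0.106 and 0.214 CPM. Those of muscle lay between 0.212 and 0.427 CPM and those of germ cells between 0.742 and 0.962 CPM. Fibroblast markers summed to between 6.52 and 9.65 CPM, nearly all from Col1a1, with Dcn, Col3a1 and Thy1 at 0. Epithelial markers summed to 11.3, 2.65 and 4.67 CPM in replicates 1, 2 and 3.

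Ribosomal protein genes took 5.07%, 5.04% and 5.11% of all counts in replicates 1, 2 and 3. The 40S genes took 2.06%, 2.03% and 2.08%, and the 60S genes 2.99%, 2.98% and 3.01%. In edgeR's quasi-likelihood test against 1 CPM with Benjamini-Hochberg adjustment, 80 of the 83 members were above it, against 74.3% of the 14408 genes tested. No member with a count was below it, against 20.2% of those genes. The remaining 3, Rpl3l, Rpl39l and Rpl32l, had no count in any library. The core genes spanned 59.3 to 3341 CPM, with a median of 533 CPM.

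**Figure D1:**
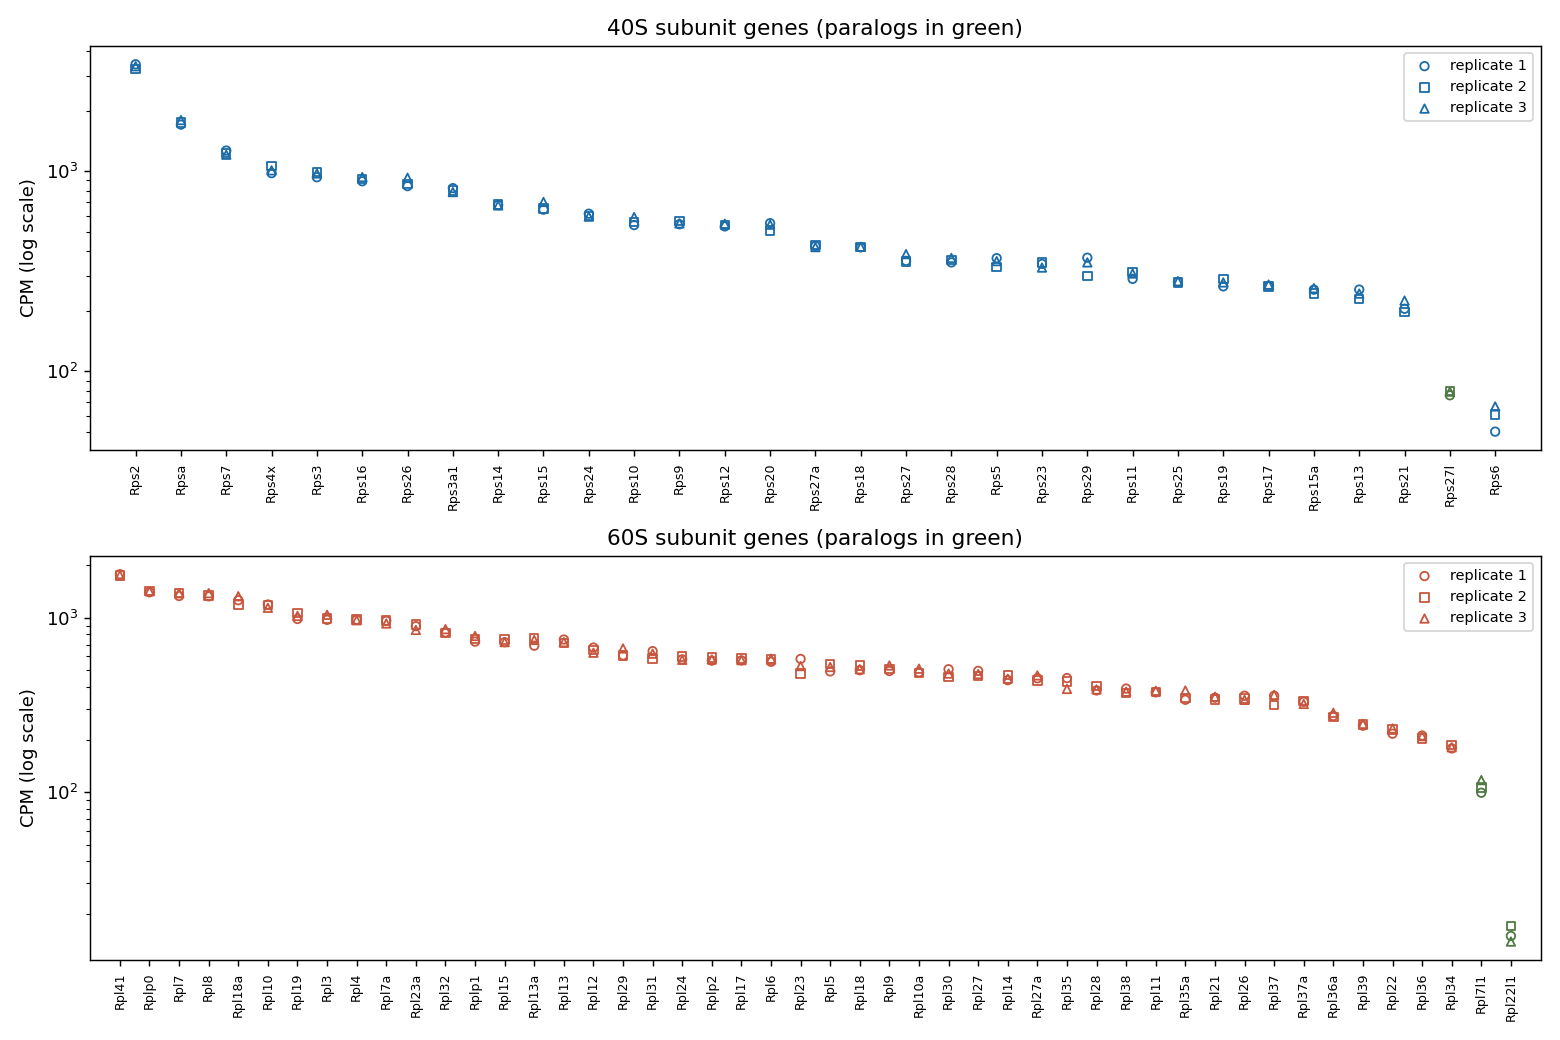
CPM of the ribosomal protein genes with a count, other than one not reported here (log scale), in the 3 libraries, 40S genes above and 60S genes below, each ordered by mean. Circles, squares and triangles are replicates 1, 2 and 3, and green marks the paralogs. Rps2 leads the 40S genes at 3341 CPM on average and Rps6 is last at 59.3 CPM, while Rpl41 leads the 60S genes and the paralogs Rpl7l1 and Rpl22l1 close them.

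Rps6, the 40S protein whose phosphorylation by S6 kinase is a standard readout of mTOR signalling, was the lowest of all 77 core genes in every library. It was listed with 467.76, 575.63 and 630.11 estimated counts in replicates 1, 2 and 3, and averaged 59.3 ± 8.55 CPM (SD, n = 3). A separate row of the table, LOC105244208, was listed with 11332.24, 11048.37 and 11235.89 counts in the same libraries. The fractions of the 2 rows added to whole numbers, 11800, 11624 and 11866 reads, of which Rps6 was given 3.96%, 4.95% and 5.31%. The RefSeq gene of that number is Rps6-ps4, a transcribed pseudogene on chromosome 2 (GRCm38.p6, chr2:75190995-75191854), while Rps6 lies on chromosome 4 (GENCODE M21 on GRCm38, chr4:86854660-86857412, minus strand). The GENCODE model of Rps6-ps4 is 750 bases long, and all 750 were identical to the Rps6 transcript of 878 bases. The windows below show bases 87 to 146 of the Rps6 transcript and the matching first 60 bases of that model, with the start codon of Rps6 in capitals, because a read from this stretch holds no base that tells the genes apart.
Rps6: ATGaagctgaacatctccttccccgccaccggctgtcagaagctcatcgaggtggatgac
Rps6-ps4: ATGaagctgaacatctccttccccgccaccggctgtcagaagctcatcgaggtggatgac

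Of the 31-base words in the Rps6 transcript, 84.9% were also in the model of Rps6-ps4, and 15.1% were in no other gene's transcript. With the counts of both rows added, Rps6 stood at 1261, 1232 and 1259 CPM (1250 ± 15.9, SD, n = 3), the 8th, 7th and 8th highest of the core genes in replicates 1, 2 and 3. Reads of the gene and of the pseudogene cannot be told apart from these counts alone.

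**Figure D2:**
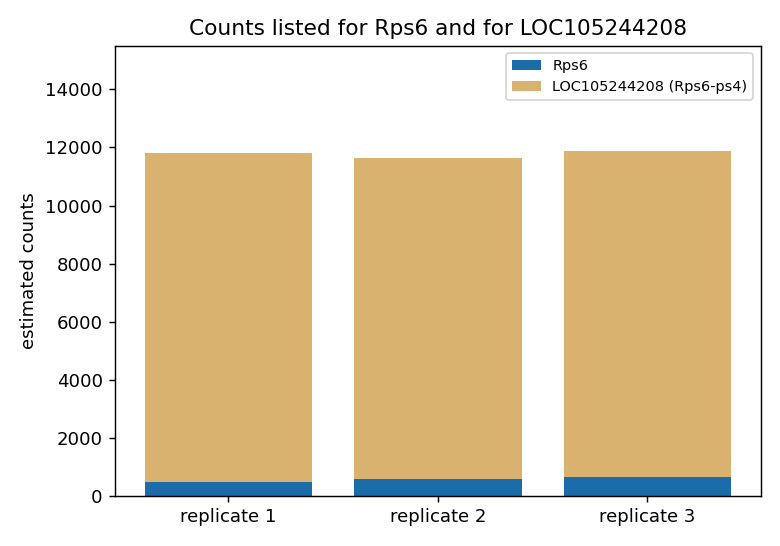
Estimated counts listed for Rps6 (blue) and for LOC105244208, the RefSeq gene Rps6-ps4 (tan), stacked for each library. The stacked sums are whole numbers, 11800, 11624 and 11866, and Rps6 holds between 3.96% and 5.31% of them.

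Fractional counts, those more than 0.005 from a whole number in some library, were given to 17 members, against 2270 of all 17285 rows. For 10 of the 17, adding 1 or 2 of the fractional rows that share at least 5% of the gene's words gave whole numbers in every library. The margin was 0.011 with 1 row added and wider with 2. Some of the 10 were not fractional in every library, such as Rpl21, which was so in 1 only. Apart from Rps6, each of these kept at least 96.4% of the summed reads: Rps25 with Ccdc84, Rplp2 with Wdr89, Rpl5 with Fam69a, Rpl37 with Rpl37rt, and Rpl34 with Rpl34-ps1 are examples. Not all partners are copies elsewhere, since Ccdc84 (chr9:44410159-44418084 in RefSeq) overlaps Rps25 (chr9:44407714-44410406). Sharing of sequence itself was common, since 82 of the 83 members shared a 31-base word with at least 1 annotated pseudogene, with a median of 15 and a maximum of 162 for Rpl7a. A median of 37.8% of a member's words were found in its transcripts alone. That share was 36.9% in the 17 members with fractional counts and 38.1% in the 66 with whole counts. How the authors treated reads with several matches is not given in the sources used here, so the levels of members with near-identical copies are uncertain.

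Because subunit proteins are made in matched amounts, levels were next set against each other per kb of exon. Within each library the log2 of each gene's count per kb was taken relative to the median of the core genes, and genes off that median by more than 2-fold were called with limma's treat test at an adjusted p under 0.05 over all 11676 genes tested. Per kb of all annotated exons merged, 16 of the 80 members with counts were called above (7 of the 40S and 9 of the 60S) and 16 below (7 core 40S, 6 core 60S and 3 paralogs), against 0.368% above and 97.4% below among all genes tested. The number depended on the length used, and the alternative of 1 main transcript per gene was added after seeing the data. It gave 7 above and 10 below (0.128% and 98.2% of all genes), coding sequence gave 3 and 6 (0.164% and 97.6%), and reads without a length gave 9 above and 11 below (0.489% and 94.3%). The merged exons of a core gene were a median of 2.06 times as long as its main transcript, and up to 7.40 times.

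Of the core genes, 3 kept 1 call under all 4 measures of length: Rps2 and Rpl41 above, and Rps6 below. Rps2, a 40S protein at the mRNA entry channel, was at 3427, 3246 and 3351 CPM, the 9th most abundant gene of the whole table. Its log2 difference from the subunit median per kb of merged exon was 2.71 ± 0.04 (SD, n = 3, adjusted p = 1.08e-11), and it was 2.27 per kb of main transcript, 1.69 per kb of coding sequence and 2.62 in reads. Only 14.7% of the 31-base words of Rps2 were its own, and it shared words with 95 pseudogenes.

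Rpl41, the shortest ribosomal protein, which sits between the subunits, was at 1772, 1740 and 1747 CPM. Its log2 difference was 2.43 ± 0.02 per kb of merged exon (adjusted p = 1.33e-11, limma), 2.53 per kb of main transcript, 4.31 per kb of coding sequence and 1.69 in reads. Its coding sequence is 75 bases of a main transcript of 437 bases. Rps6 as listed was at −2.91 ± 0.21 per kb of merged exon (adjusted p = 4.85e-09), and at 1.47 ± 0.03 with the reads of LOC105244208 added (adjusted p = 1.95e-07), an alternative chosen after seeing the data. Per kb of main transcript the sum stood at 1.01 ± 0.05, which was not called (adjusted p = 0.397).

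**Figure D3:**
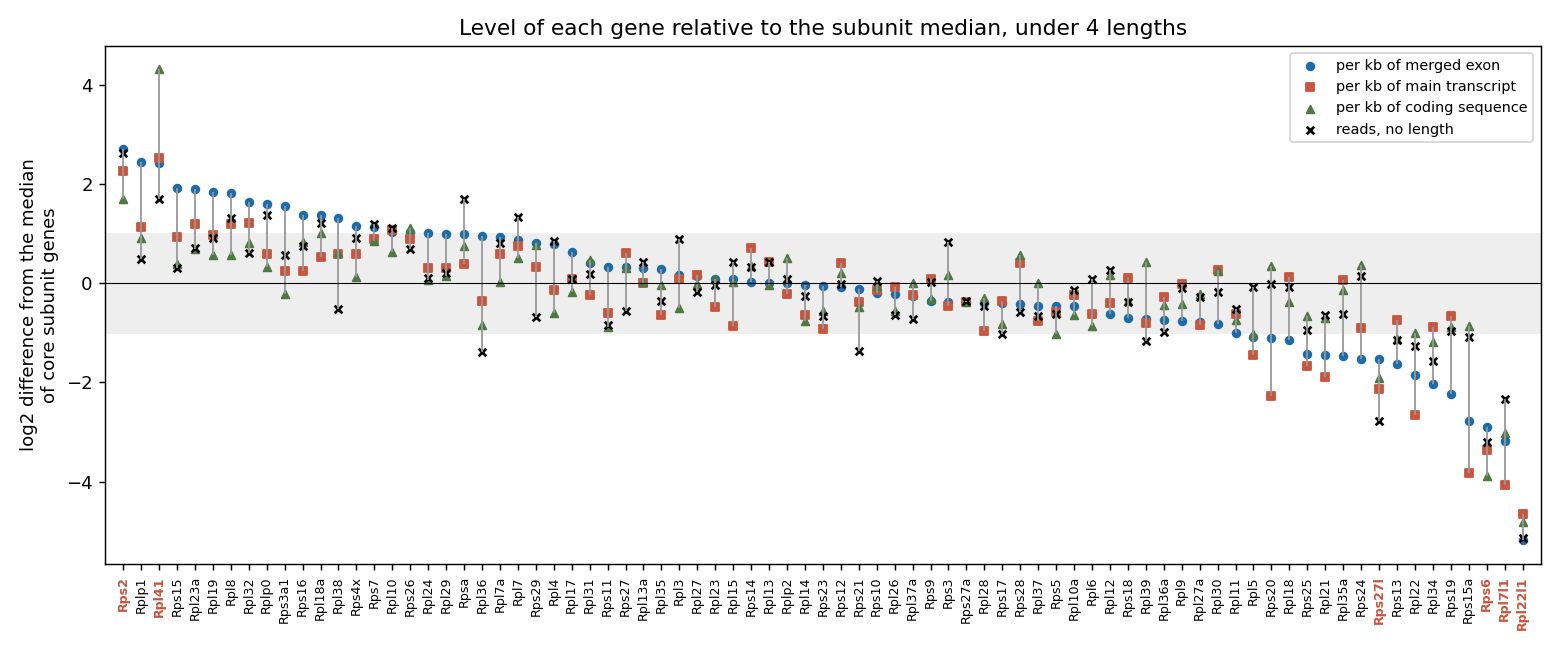
Log2 difference of the members with counts, other than one not reported here, from the median of the core subunit genes, as the mean of the 3 libraries, per kb of merged exon (blue), per kb of main transcript (red), per kb of coding sequence (green) and in reads (crosses). The grey band spans 2-fold either way, and the 6 genes named in red, Rps2, Rpl41, Rps27l, Rps6, Rpl7l1 and Rpl22l1, were called the same way under all 4 measures.

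The other high and low core genes moved with the length. Among the 40S genes the highest per kb of merged exon after Rps2 were Rps15 (1058 CPM per kb), Rps3a1 (823), Rps16 (723) and Rps4x (624 CPM per kb). The lowest 40S genes above Rps6 (37.4 CPM per kb) were Rps15a (40.5), Rps19 (59.4), Rps13 (90.5) and Rps24 (96.2 CPM per kb). Rps19, whose human counterpart is the gene most often mutated in Diamond-Blackfan anaemia, had 278 CPM spread over 4685 bases of merged exon. Among the 60S genes the highest were Rplp1 (1515 CPM per kb), Rpl41 (1501), Rpl23a (1045), Rpl19 (1000.03) and Rpl8 (991 CPM per kb). The lowest were Rpl34 (68.6), Rpl22 (77.3), Rpl35a (101), Rpl21 (102) and Rpl18 (127 CPM per kb). Of all 80 members, 41 had no call under any measure of length, 33 were called under some only, and 0 were called both ways. By value, 44 of the 77 core genes lay within 2-fold of the median per kb of merged exon, and 63 of 77 per kb of main transcript.

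Leaving out 1 library ended the call of some core genes close to the 2-fold margin, among them Rps20 and Rpl5. The log2 difference of Rps20 was −1.10, and −1.06 without replicate 2, and that of Rpl5 was −1.08, and −1.05 without replicate 1.

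The stalk recruits the translation GTPases to the 60S subunit. Rplp0, the stalk's anchor, was at 1411 ± 13.2 CPM, Rplp1 at 756 ± 28.1 CPM, Rplp2 at 577 ± 11.3 CPM and Rpl12, at the stalk base, at 650.4 ± 21.98 CPM (SD, n = 3). Per kb of merged exon their log2 differences from the subunit median were 1.61, 2.44, −0.004 and −0.63. Rplp1 and Rplp2 form dimers in the stalk. Of the 4, Rplp0 and Rplp1 were called above the median (limma treat, adjusted), against 0.368% of all genes tested, and neither was called per kb of coding sequence. Per kb of main transcript Rplp1 was called (1.13) and Rplp0 was not (0.58), while in reads Rplp0 was called (1.38) and Rplp1 was not (0.48). Rpl5 and Rpl11, which bind the 5S rRNA and can bind the p53 regulator Mdm2, were both low per kb of merged exon, at −1.08 ± 0.06 and −1.0004 ± 0.016, with 517 and 376 CPM. Only Rpl5 was called (adjusted p = 0.0119, limma treat), and without replicate 1 it was not. Per kb of main transcript Rpl5 was called (−1.46) and Rpl11 was not (−0.62). In reads, Rpl5 was at −0.067 and Rpl11 at −0.53, and per kb of coding sequence they were at −1.02 and −0.74, none of which was called.

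Per kb of merged exon, the median 60S gene was higher than the median 40S gene by 0.27, 0.30 and 0.19 log2 units in replicates 1, 2 and 3. Per kb of main transcript the mean difference was −0.08, so its direction depended on the length, and no test was made. Genes of proteins in the 40S head had a median log2 difference per kb of merged exon from the core median of −0.41. It was 0.28 for those of the 40S body and platform, which include Rps6 as listed, and 0.35 for those around the exit tunnel. No other length was used for these lists, and the differences were not tested. Genes of ribosomal proteins outside the naming rule included Fau, fused to a ubiquitin-like protein, at 315 ± 10.6 CPM, and Rack1, a scaffold of the 40S head, at 1079 ± 35.0 CPM.

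Each paralog was lower than its parent gene. Rpl7l1, related to a yeast pre-60S assembly factor, took 6.93%, 7.13% and 7.83% of the reads of the pair with Rpl7 in replicates 1, 2 and 3. It was at 99.0, 106 and 117 CPM, against 1329, 1385 and 1378 CPM for Rpl7. The log2 ratio of Rpl7l1 to Rpl7 per kb of merged exon was −4.05 ± 0.10 (SD, n = 3, adjusted p = 2.16e-16, limma), and 99.6% of the 14096 genes tested were below Rpl7.

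Rpl22l1, whose product resembles the RNA-binding protein Rpl22, was at 15.0, 17.1 and 13.9 CPM, against 216, 228 and 231 CPM for Rpl22. It took 6.37 ± 0.65% of the pair's reads, and its log2 ratio per kb was −3.33 ± 0.16 (adjusted p = 1.73e-15, limma), with 95.5% of all genes below Rpl22. Per kb of main transcript the ratio was −1.98, the widest shift of the 4 pairs. Rpl22 itself was among the lowest 60S genes. The coding sequences of the 2 genes were 66.7% identical and shared no 31-base word, so coding reads of that length tell these 2 apart. Pseudogenes can still share them, since 27.6% of the words of the Rpl22l1 transcript and 90.2% of those of Rpl22 were their own. The windows below are bases 52 to 111 of the coding sequence of Rpl22l1 and bases 67 to 126 of that of Rpl22, with the 15 differing bases in capitals.
Rpl22l1: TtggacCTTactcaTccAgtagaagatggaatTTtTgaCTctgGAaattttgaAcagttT
Rpl22: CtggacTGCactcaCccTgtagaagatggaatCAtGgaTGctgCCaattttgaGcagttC

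Rps27l, a paralog of the zinc-binding 40S protein Rps27 and a p53 target in human cells, was at 76.0, 80.0 and 79.2 CPM, against 357, 355 and 386 CPM for Rps27. It took 17.6%, 18.4% and 17.0% of the pair's reads. The log2 ratio per kb was −1.87 ± 0.07 (adjusted p = 2.43e-81, limma), with 99.2% of all genes below Rps27. Rps27 is one of the members least distinct in sequence, with 1.27% of its words its own and 14 pseudogenes sharing them, while 70.4% of those of Rps27l were its own. The coding sequences were 76.1% identical, as the first 60 bases show, with the 18 differing bases in capitals.
Rps27l: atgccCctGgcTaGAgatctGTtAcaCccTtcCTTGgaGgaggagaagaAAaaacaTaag
Rps27: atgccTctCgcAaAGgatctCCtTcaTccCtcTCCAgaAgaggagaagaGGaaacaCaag

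Rpl36al, a paralog whose symbol the naming rule did not take, came closest to its parent. It was at 155, 164 and 161 CPM, against 273, 270 and 285 CPM for Rpl36a, or 36.8 ± 0.93% of the pair's reads. The log2 ratio per kb was −0.49 ± 0.06 (adjusted p = 1.60e-09, limma), and 98.1% of all genes were below Rpl36a. The coding sequences were 87.9% identical and shared no 31-base word. Of the words of the whole transcripts, 35.3% were its own for Rpl36al and 11.7% for Rpl36a, which shared words with 7 and 13 pseudogenes.

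Rpl3l, expressed mainly in heart and skeletal muscle, had no read in any library, against 28200 reads for Rpl3 in all 3 together. At the limit of 3 counts over the group it was at least 9400-fold lower in reads, a level of at most 0.106 CPM. Rpl39l, expressed mainly in the male germ line, had no read either, against 6863 for Rpl39, and was at least 2288-fold lower. The markers of muscle and of germ cells were at the low sums given above. Rpl32l, a processed pseudogene by the GENCODE annotation, had no read. These floors cover counting error only.

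**Figure D4:**
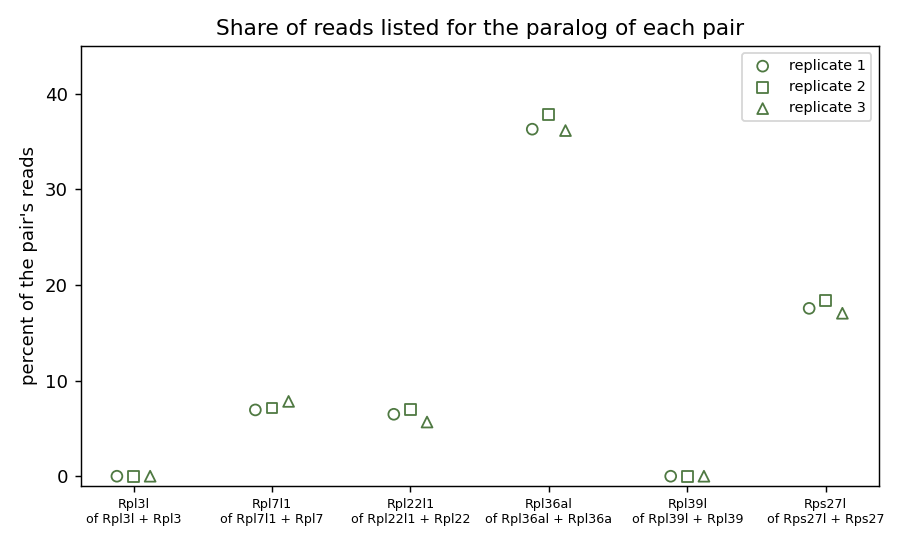
Percent of the reads of each paralog and its parent gene that was listed for the paralog, in replicates 1, 2 and 3 (circles, squares, triangles). Rpl36al holds 36.8% on average, Rps27l 17.7%, Rpl7l1 7.30% and Rpl22l1 6.37%, while Rpl3l and Rpl39l are at 0 in every library.

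The counts of many members differed between the libraries by more than counting error, but by little. In a Poisson deviance test of the 3 libraries with Benjamini-Hochberg adjustment over the 11000 genes that averaged 10 counts or more, 33 of 80 members varied, against 3.31% of all genes. Among genes averaging 1000 counts or more, where the test sees smaller differences, 32 of 77 members varied, against 9.42% of 2293 genes. The median log2 range over the libraries was 0.083 in those members and 0.076 in the other genes averaging 1000 counts or more. Members and other genes share that floor but were not matched in depth above it. Rpl18, the median member at 512 CPM, ranked 244th in the whole table. The test sees smaller differences at higher counts, so part of the gap in the shares that varied may come from depth, which was not tested. With replicate 1, 2 or 3 left out, 15, 18 or 15 members varied.

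The widest range was that of Rps6 as listed, 0.41 log2 units, from the counts given above. Rps29, a zinc-binding 40S protein, was at 370, 299.5 and 351 CPM, lowest in replicate 2, with a range of 0.30. Rpl22l1 had a range of 0.29 at a mean of 144 counts and was not called. Rpl23 was at 579, 479 and 527 CPM, with a range of 0.27, and Rpl7l1 had a range of 0.24. The varying members shared no single direction. Replicate 3 held the highest value for 16 of the 33, replicate 1 for 11 and replicate 2 for 6, and replicate 1 held the lowest for 15, replicate 2 for 14 and replicate 3 for 4. The median log2 deviation of all 80 members from their own means was −0.015, −0.002 and 0.013 in replicates 1, 2 and 3.

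**Figure D5:**
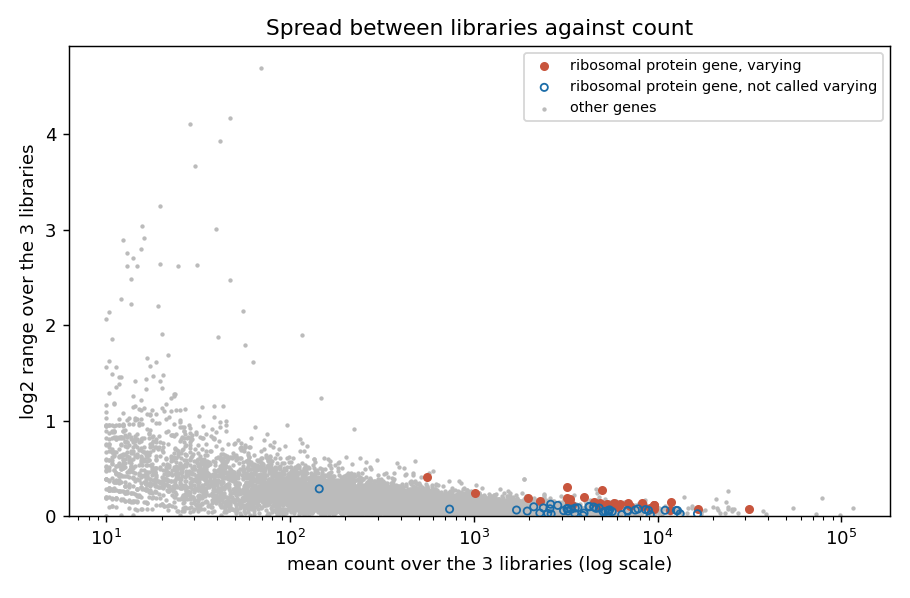
Log2 range over the 3 libraries (linear axis) against the mean count (log axis) for each gene that averaged 10 counts or more. Filled red points are the 33 ribosomal protein genes that varied by the Poisson test, open blue points those not called, and grey points other genes. The members lie at the lower right, with ranges up to 0.41.

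The start regions of members were read from RefSeq promoters (GRCm38.p6, 250 bases before to 50 after the start), which were found for 63 of the members. A run of at least 7 C or T letters that begins with C and lies within 20 bases of an annotated start on the gene's strand was present in 36 of 63 members (57.1%), against 22.8% of 13237 protein-coding genes of the table. Runs wholly before the annotated start, such as that of Rps27l below, were counted too, and would lie outside an mRNA that begins there. The 36 members include Rpl32l (a run of 10), a processed pseudogene by the GENCODE annotation. The letters CCGGAAG, on either strand of the 300 bases, were present in 26 of 63 members (41.3%), against 16.3%. They match the core that ETS-family factors bind, and their reverse complement CTTCCGG can overlap a run of C and T. The 40-base windows below, 20 bases each side of the start, belong to Rps6, Rpl35 and 2 paralog pairs, and show where the run (in capitals) lies. Rpl35 was chosen for its run of 18, which is long but not the longest (20 in Rpl27a and Rpl34, 19 in Rpl7a). Rpl22 is shown for having no run of 7 at either annotated start. The window printed for Rpl22 is that of its upstream start, where the longest run is 5. Its other window, chr4:152325706-152325745, holds the start of the GENCODE gene (152325742), and the longest run there is 4. Rps27l also has another annotated start (chr9:66946393-66946432 is its window), where the longest run is 4.
Rps6, chr4:86857348-86857387, minus strand: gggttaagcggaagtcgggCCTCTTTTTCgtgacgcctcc
Rpl35, chr2:39005112-39005151, minus strand: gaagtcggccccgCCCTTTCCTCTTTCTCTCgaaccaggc
Rps27l, chr9:66946066-66946105, plus strand: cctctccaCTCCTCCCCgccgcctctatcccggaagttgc
Rps27, chr3:90213629-90213668, minus strand: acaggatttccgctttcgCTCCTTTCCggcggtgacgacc
Rpl22l1, chr3:28805488-28805527, plus strand: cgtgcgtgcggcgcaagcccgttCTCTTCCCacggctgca
Rpl22, chr4:152324416-152324455, plus strand: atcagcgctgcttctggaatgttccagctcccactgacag
These are matches of letters in annotated windows, and initiation was not measured.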

How the data were processed

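The authors deposited 1 table of estimated counts, with gene symbols as rows and samples as columns, not normalized and not pooled. Per the labels' protocols, a NucleoSpin kit was used for total RNA and BGI made the libraries. Per the submitters' processing notes, the build was GRCm38.p6. The sources used here name no aligner, counting tool, annotation, filter or strand setting, so overlapping or antisense genes may share reads. Counts were rounded to whole numbers and scaled by TMM (factors 1.0034, 0.9977 and 0.9989). A level was set against 1 CPM by the quasi-likelihood F statistic of edgeR 4.0.16 (R 4.3.3) from a fit with an intercept alone. Ratios within a library, from counts plus 0.5, were tested with limma 3.58.1 (trend), stoichiometry with treat at 2-fold for genes with at least 10 counts. The p-values of edgeR and limma were two-sided, and the Poisson deviance test took the upper tail of a chi-square. All were adjusted over all genes tested. limma borrows the spread of other genes, so its small p-values rest on that model rather than on 3 libraries alone. Exon lengths, transcripts and coding sequences came from GENCODE M21 by symbol. Coding length was taken from there. Tests were also run on simulated counts, with no outcome given here. Those counts modelled neither reads with several matches nor the choice of transcript. Depth limits each value as given with the libraries, and intervals and floors cover counting error only.

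Members and lists were chosen with earlier results of these data known. Genes named are all paralogs with their parents, the 5 highest and 5 lowest core genes per kb in each subunit, stalk and 5S genes, the 5 widest ranges and the ribosomal proteins outside the rule. Others named were chosen after their values were seen. Rpl10l, Rps4l and Rps27rt were not analysed here, and values of some single genes are not reported here. Alternatives were DESeq2 1.42.0 (test and size factors), library totals, other thresholds, pseudocounts, filters and lengths, members with whole counts, and leaving out each library.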

Additional observations from a re-analysis of the deposited data

How the results depend on the processing

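The count of members above 1 CPM stayed at 80 under every scaling, filter, tool (DESeq2 included), threshold of 10 CPM and left-out library tried, and Rpl7l1, Rpl22l1, Rps27l and Rpl36al stayed below their parent genes under the alternatives run for these 4 pairs. None was run for Rpl3l and Rpl39l, which had no read. The number varying, 33, was between 15 and 18 with 1 library left out. The number over 2-fold above the subunit median, 16, was 3 by coding length, 9 without a length and 7 by main transcript length, and the number below, 16, was 6 by coding length and 10 by main transcript length. The log2 difference of 60S and 40S medians, 0.25 on average, was 0.041 by coding length, 0.12 without a length, 0.38 in members with whole counts and −0.084 by main transcript length. The share of counts, 5.07% on average, was 4.37% for members with whole counts alone. Of named genes, the log2 difference changed sign for Rps20 (0.34), Rps3a1 (−0.21) and Rps24 (0.36) by coding length, for Rps24 (0.15) and Rpl38 (−0.52) without a length, for Rpl35a (0.057) and Rpl18 (0.12) by main transcript length, and for Rps6 with the reads of LOC105244208 (1.47). For the changes with length, the length alone differs. Another 57 values of single genes under an alternative kept their direction but lost their call, and 255 kept both. The main transcript length and the sum for Rps6 were chosen after seeing the data. No paired analysis was possible because the samples form a single group. Limits of these data are the unknown handling of reads with several matches, the unknown transcript used by each gene, and replicates that may be technical.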

Other observations

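The 78 genes of the mitochondrial ribosome all exceeded 1 CPM (edgeR, adjusted), against 74.3% of the 14408 genes tested, with a median of 49.6 CPM and a range of 8.83 to 193 CPM. Per kb of merged exon their median log2 difference from the cytosolic subunit median was −3.71, with the middle of the list between −4.52 and −2.88, against −5.24 for all 11676 genes tested. In total they took 4467, 4563 and 4650 CPM in replicates 1, 2 and 3. A list of 32 ribosome assembly genes, all above 1 CPM, had a median of 123 CPM and was led by Npm1, a nucleolar histone chaperone, at 1100.2 CPM, Ncl (nucleolin) at 754 CPM, the export receptor Xpo1 at 260.2 CPM and Polr1a, the large subunit of RNA polymerase I, at 243 CPM. All 10 listed regulators of 5′ terminal oligopyrimidine mRNAs also exceeded 1 CPM, a level that most genes of the table exceeded. Larp1, which binds those tracts, was highest at 438 ± 4.34 CPM, followed by the translation repressors Eif4ebp1 at 321 ± 6.06 and Eif4ebp2 at 293 ± 7.04 CPM, and by Larp4, a poly(A)-binding La-related protein, at 209 ± 2.07 CPM (SD, n = 3).

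Of the 7 members with fractional counts for which no partner sharing at least 5% of the words gave whole sums (Rpl37a, Rpl7l1, Rpl23, Rpl27, Rps15a, Rpl31 and Rps16), 3 were fractional in every library: Rpl23, Rpl31 and Rps16. Without that condition on shared words, the counts of Rps16 added to whole numbers (8350, 8660 and 8827) with those of the row LOC100862433, and Rps16 held 99.98%, 99.98% and 99.99% of them.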
